A study of Mus musculus with 48 samples.

Results

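The level of 10 genes with known roles in amygdala neurons was followed across 48 RNA-sequencing libraries of mouse amygdala punches. Of these, 8 encode neuropeptide precursors (Crh, Nts, Tac2, Sst, Npy, Vip, Cck and Cartpt), Prkcd encodes a protein kinase and Pvalb a calcium-binding protein. The genes were chosen by symbol, each symbol matched 1 Ensembl identifier in the GENCODE M21 annotation, and together they are 10 of the 52636 genes in the deposited table. The libraries came from female mice, whose strain the labels give as C57BL/6NTac-Brd1 for both genotypes, aged 8 to 11 weeks by the series' design text, with 8 libraries in each of 6 groups. Wild-type (WT) mice and mice heterozygous for a targeted deletion in Brd1, a gene for a chromatin-associated bromodomain protein (Brd1+/-, the line C57BL/6NTac-Brd1tm1.2Arte/AborgMmucd), each received saline (vehicle), imipramine at 10 mg/kg (IMN) or fluoxetine at 5 mg/kg (FLX). All groups, vehicle included, had been injected and had gone through tests of despair-like behaviour before the brains were taken. The deletion is present in every cell, and each sample was a punch of the right amygdala cut from a frozen coronal slice. The labels do not say which litter, day or sequencing run a mouse belonged to. The design text of the series names other brain regions than the sample labels do. The labels, which give amygdala, were followed.

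The amygdala is a set of nuclei that assigns emotional value to stimuli and drives fear, stress and feeding responses. Its central nucleus is made almost wholly of GABAergic neurons, and these are told apart by what they express: PKC-delta (Prkcd), somatostatin (Sst), corticotropin-releasing hormone (Crh), neurotensin (Nts) and the neurokinin B precursor (Tac2) mark partly overlapping sets. Its basolateral and cortical nuclei hold glutamatergic neurons, many with Cck, and scattered interneurons with parvalbumin (Pvalb), Vip, Npy, Sst or Cck. Neuropeptides are cut from precursors in dense-core vesicles and act through G protein-coupled receptors, slower and over longer distances than classical transmitters.

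Several neuropeptide genes are textbook targets of the cAMP-responsive factor CREB, which binds the cAMP response element (CRE, letters TGACGTCA, a palindrome) and its shorter core TGACG. The stretches around these letters are shown because the CRE is a well-known control element of neuropeptide genes. Some pairs of the members that hold a match varied together below and others did not, and any link to these letters was not tested. RefSeq promoter windows (GRCm38.p6, from 250 bases before to 50 bases after the start site) were at hand for 9 of the 10 genes, in 11 windows. The full CRE lay in the windows of 2 members, against 1.79% of all 32851 windows. The core TGACG, searched on both strands and also part of the CRE, lay in the windows of 5 members, against 20.8% of all windows. Capitals mark the matched letters, printed 5′ to 3′ on the strand of the gene. Sst and Cartpt are shown more briefly because the longest GENCODE gene model runs over them. A match describes the letters only.
Sst, CRE, chr16:23890874-23890903, minus strand: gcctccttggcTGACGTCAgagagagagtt
Cartpt, CRE, chr13:99900777-99900806, minus strand: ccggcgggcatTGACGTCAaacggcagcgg
Vip, core, chr10:5639099-5639183, plus strand: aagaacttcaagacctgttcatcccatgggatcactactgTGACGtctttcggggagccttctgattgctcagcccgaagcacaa
Cck, core on the other strand, chr9:121495697-121495781, minus strand: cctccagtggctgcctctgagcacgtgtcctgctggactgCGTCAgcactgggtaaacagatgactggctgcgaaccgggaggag
Nts, core on the other strand, chr10:102490540-102490624, minus strand: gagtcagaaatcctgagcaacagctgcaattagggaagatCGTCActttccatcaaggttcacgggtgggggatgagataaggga
Counted from the start site, the match began at position -48 in Sst, -112 in Cartpt, -79 in Vip, -47 in Cck and -166 in Nts.

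Values are TPM, the share of transcripts that come from a gene, which are scaled for transcript length and so allow levels of different genes to be compared, but keep no record of sequencing depth. Brd1 itself was lower in Brd1+/- than in WT libraries, at 26.0 ± 2.90 against 35.6 ± 5.09 TPM with vehicle, 23.4 ± 4.84 against 36.9 ± 2.83 with IMN, and 23.5 ± 3.49 against 32.9 ± 4.45 with FLX (SD, n = 8 each). Over all treatments its log2 difference was -0.54 (adjusted p = 8.9e-07, limma). Within a treatment its adjusted p was under 0.05 with FLX (0.0362, limma) but not with vehicle (0.05115) or IMN (0.102). A gene that does not pass in a comparison of 8 against 8 libraries is therefore not shown to be unchanged. The punches were not alike in tissue content. Summed over 8 markers of striatal projection neurons, the level ran from 131 to 8115 TPM, and 12 libraries reached 2000 TPM (2 WT vehicle, 3 Brd1+/- vehicle, 2 WT IMN, 3 Brd1+/- IMN, 0 WT FLX and 2 Brd1+/- FLX). Summed choroid plexus markers reached 1000 TPM in 9 libraries, with 29695 TPM in WT vehicle replicate 1. Summed hypothalamic markers ran from 2.24 to 62.0 TPM in WT vehicle and from 31.4 to 4634 TPM in WT FLX. Of the defining hypothalamic genes, Hcrt was listed at 0 in 35 of 48 libraries and Oxt in 32. Markers of amygdala neurons were present, with the GABA-synthesising enzyme gene Gad1 between 186 and 843 TPM, but Slc17a7, the vesicular glutamate transporter of cortical and basolateral neurons, ran from 1.87 to 1346 TPM. Some results are therefore given with and without the libraries rich in striatal or choroid plexus markers. In bulk tissue, fewer cells of a type and less RNA per cell cannot be told apart.

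Sst was the most abundant of the 10 genes, with a mean of 779 TPM over the 48 libraries, and the highest of the 10 in 47 libraries. Cck followed at 193 TPM, Npy at 149, Tac2 at 97.8, Pvalb at 66.7, Nts at 48.6, Cartpt at 38.4, Prkcd at 37.8, Vip at 15.1 and Crh at 10.6 TPM. Sst exceeded Cck in 48 of 48 libraries. Below it the order was loose: Cck exceeded Npy in 26 libraries, Pvalb exceeded Nts in 25, Cartpt exceeded Prkcd in 18 and Vip exceeded Crh in 22 of the 48.

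The genes varied widely between punches of the same group. Sst, the growth hormone-inhibiting peptide of a large class of inhibitory neurons, varied least, from 151 to 1499 TPM, with a pooled within-group SD of 0.71 on the log2(TPM + 0.1) scale. Tac2 varied most, from 0 to 383 TPM, with a pooled SD of 2.91. The median of 13833 protein-coding genes with a mean of at least 1 TPM was 0.35, and Tac2 lay at percentile 99.6 of these genes and Sst at 80.4. Between them came Cartpt with 2.41, Vip with 2.07, Cck with 1.86, Crh with 1.45, Nts with 1.41, Pvalb with 1.40, Npy with 1.07 and Prkcd with 0.95. The range over all libraries was 8.28 to 807 TPM for Cck, 5.15 to 314 for Npy, 6.37 to 457 for Pvalb, 2.76 to 144.9 for Nts and 8.40 to 164 for Prkcd. Cartpt (0 to 182 TPM), Vip (0 to 65.5) and Crh (0 to 36.3) included libraries listed at 0.

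Group membership accounted for little of this variance. The share of the variance of log2(TPM + 0.1) that lay between the 6 groups was 24.0% for Prkcd, 23.7% for Npy, 21.5% for Crh, 15.5% for Pvalb, 11.4% for Sst, 9.29% for Tac2, 8.54% for Cck, 6.22% for Cartpt, 0.914% for Nts and 0.597% for Vip. The median share over the same protein-coding genes was 11.2%. Nts, a peptide of central amygdala neurons that also acts in the lateral hypothalamus and midbrain dopamine circuits, had group medians from 31.7 TPM in Brd1+/- FLX to 56.2 in WT FLX. Vip, the peptide of interneurons that inhibit other interneurons, had medians from 6.96 TPM in WT FLX to 20.2 in Brd1+/- FLX. The range within each group was wider than the gap between these medians, for example 2.76 to 117 TPM for Nts in Brd1+/- vehicle and 0 to 58.5 TPM for Vip in Brd1+/- FLX.

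**Figure D1:**
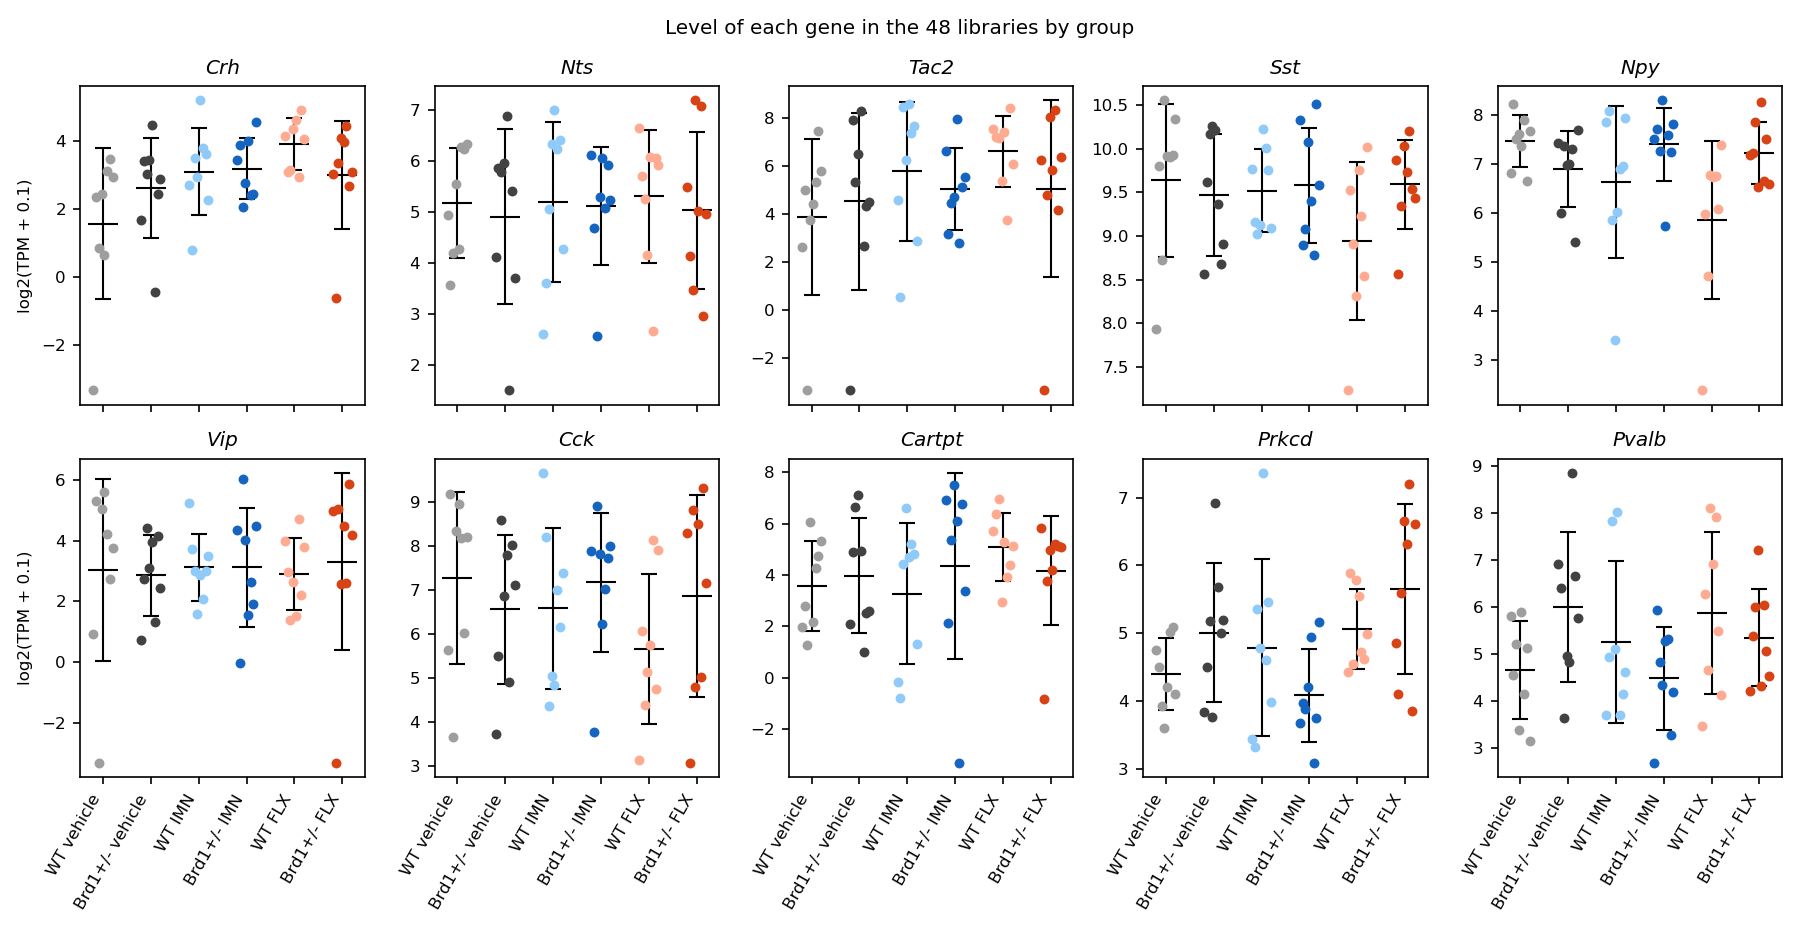
Level of the 10 genes in each library, as log2(TPM + 0.1), by group; each point is 1 library and the cross gives the mean and SD of 8 libraries. Points at the bottom of the Crh, Tac2, Vip and Cartpt panels are libraries listed at 0, and the 6 groups overlap in every panel.

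Across 12 comparisons (3 of genotype within a treatment, 4 of drug against vehicle, 2 of FLX against IMN, 2 interactions and 1 of genotype over all treatments), none of the 10 genes passed the threshold of adjusted p under 0.05 in limma, with p-values adjusted over all genes tested. All 10 genes passed the filter on low values in each comparison. In 13 of the 120 tests the unadjusted p was under 0.05. The compared groups overlapped for every gene in all 9 pairwise comparisons, 90 of 90 cases. Differences below are on the log2(TPM + 0.1) scale. The added 0.1 damps ratios between levels near 0. A single library listed at 0 can still widen a difference of group means, as for Crh in WT mice below.

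**Figure D2:**
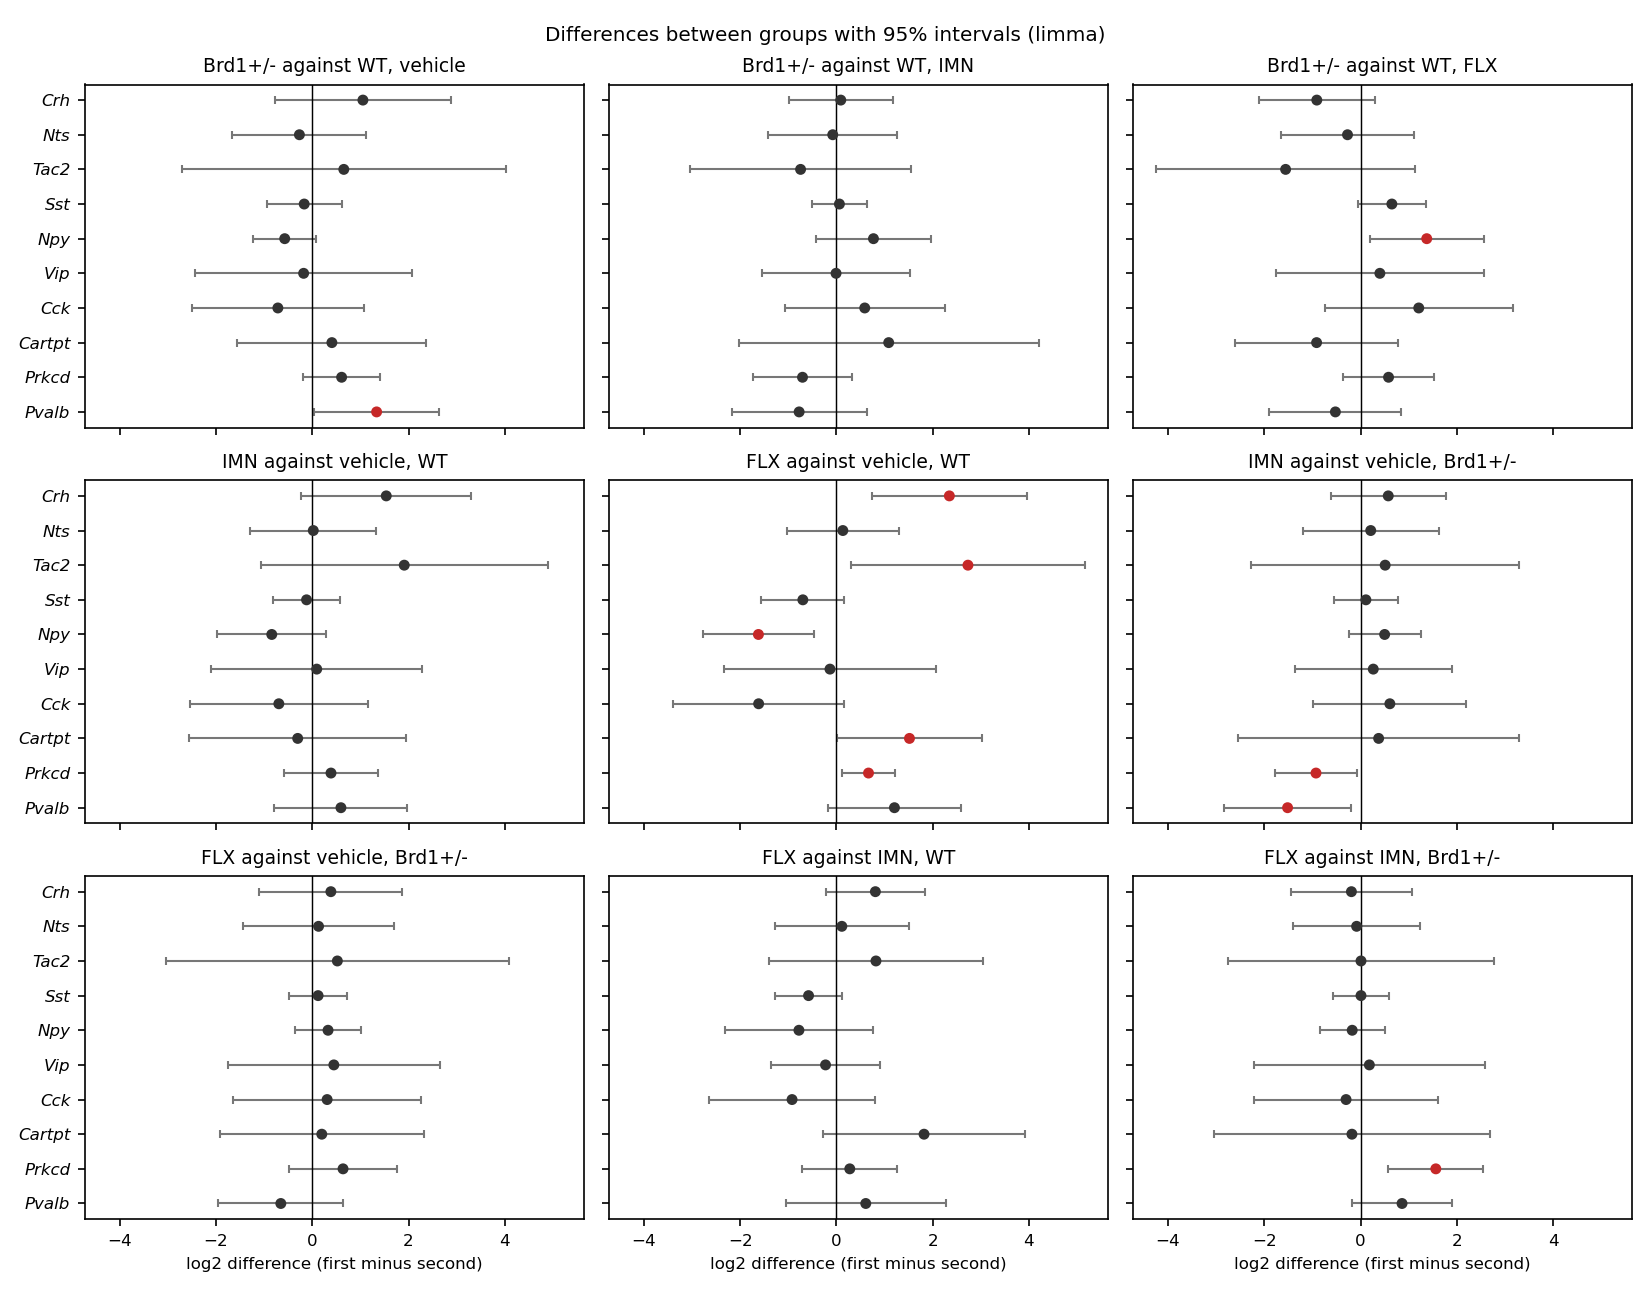
Log2 difference of each gene in the 9 pairwise comparisons (first group minus second, points) with its 95% interval from limma (bars); red points have an unadjusted p under 0.05. In FLX against vehicle in WT mice 5 genes are red, and no point passed the adjusted threshold.

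With vehicle, the question was how Brd1+/- mice differed from WT mice at baseline. Of all 24279 genes tested 0.708% were called, and 0.453% had groups that did not overlap, against 0 of the 10 genes on both counts. The differences ran from -0.71 to 1.34, and 1 of the 10 genes had an unadjusted p under 0.05, against 8.52% of all genes. Pvalb, the calcium buffer of fast-spiking interneurons, had a lowest, median and highest level of 12.4, 69.2 and 457 TPM in Brd1+/- vehicle against 8.79, 29.3 and 59.5 TPM in WT vehicle. The higher mean of the Brd1+/- group rested most on replicate 6, at 457 TPM. The difference was 1.34 ± 0.62 (SE, unadjusted p = 0.0448, adjusted p = 0.565, limma). It was 0.93 without that replicate and 0.92 without the striatum-rich libraries (unadjusted p = 0.1565, limma). It was 0.41 with marker scores as covariates and 2.07 ± 0.59 without the choroid-rich libraries (unadjusted p = 0.00353, adjusted p = 0.131, limma). The 8 markers of mature oligodendrocytes moved with it: 8 of 8 had higher means at an unadjusted p under 0.05 and none was called, with summed levels of 2338 to 16430 TPM in Brd1+/- vehicle against 676 to 11090 TPM in WT vehicle. Their part in the Pvalb difference was not tested beyond those covariates. Here and below, the marker scores used as covariates were those of the striatal, thalamic and oligodendrocyte lists. The hypothalamic and glutamatergic scores were not among them.

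Under IMN, genotype differences of the 10 genes ran from -0.77 to 1.09 with 95% bounds from -3.05 to 4.21, and no unadjusted p was under 0.05, against 3.58% of all genes (0.017% of 23581 genes called, 0.0382% without overlap). Under FLX they ran from -1.56 to 1.38, with 1 of 10 unadjusted p under 0.05 against 16.6% of all genes (1.54% of 23635 genes called, 0.368% without overlap). Npy, an appetite-promoting and anxiety-reducing peptide of local interneurons, had a lowest, median and highest level of 92.0, 147 and 308 TPM in Brd1+/- FLX against 5.15, 86.8 and 168 TPM in WT FLX. The WT median lay under the whole Brd1+/- range. The difference was 1.38 ± 0.56 (unadjusted p = 0.0251, adjusted p = 0.220, limma), and 0.88 without WT FLX replicate 1. Hypothalamic markers, which fell as Npy rose over all libraries (below), had lower means in Brd1+/- FLX for 6 of the 7 tested, with a median difference of -3.79 against -0.06 over all genes. Of the 7, 5 had an unadjusted p under 0.05 and 1 was called lower (Fezf1, named after its values were seen, adjusted p = 0.0322, limma). Their summed level was 9.03 to 50.8 TPM in Brd1+/- FLX, and their part in the Npy difference was not tested. With marker scores as covariates, which hold no hypothalamic score, the Npy difference was 1.01. Some WT libraries under FLX, and likewise under IMN, had higher sample codes than any Brd1+/- library given the same drug. With the sample code as a covariate the Npy difference under FLX was 0.95 (unadjusted p = 0.133, adjusted p = 0.573, limma). The part of handling that followed the codes was not tested beyond this covariate. Over all treatments the genotype differences were small, from -0.55 for Tac2 to 0.52 for Npy, with no unadjusted p under 0.05, while 0.0215% of 27944 genes were called and 8.55% had an unadjusted p under 0.05. The 95% interval there was -0.22 to 0.58 for Sst, -0.39 to 0.72 for Prkcd, -0.81 to 0.83 for Pvalb and -2.17 to 1.08 for Tac2, the narrowest being that of Sst and the widest that of Tac2.

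FLX against vehicle in WT mice gave the largest differences, from -1.62 to 2.73, with unadjusted p under 0.05 for 5 of the 10 genes. Of all 23557 genes tested there, 16.8% had an unadjusted p under 0.05, 0.335% were called and 0.153% had groups without overlap. The 5 genes were Crh, Tac2, Cartpt and Prkcd, with higher means under FLX, and Npy, with a lower one. Crh, the peptide that starts the hormonal stress response and is made by central amygdala neurons as well as the hypothalamus, had a lowest, median and highest level of 7.52, 17.1 and 30.0 TPM under FLX against 0, 5.14 and 11.0 TPM with vehicle. The lowest FLX libraries lay within the upper part of the vehicle range. The difference was 2.35 ± 0.76 (unadjusted p = 0.00693, adjusted p = 0.142, limma). WT vehicle replicate 1, listed at 0 for Crh, was the library with 29695 TPM of choroid plexus markers and 3864 TPM of striatal markers. Without it the difference was smaller, 1.65, but passed the threshold (adjusted p = 0.0478, limma), and this was the single alternative under which any of the 10 genes was called. It was 1.42 without the striatum-rich libraries (adjusted p = 0.0636) and 2.90 with marker scores as covariates (adjusted p = 0.703, limma).

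Tac2, the precursor of neurokinin B, had a lowest, median and highest level of 13.5, 144 and 337 TPM under FLX against 0, 26.3 and 177 TPM with vehicle. The vehicle library at 0 was replicate 3, with 8115 TPM of striatal markers, the most of any library. The difference was 2.73 ± 1.15 (unadjusted p = 0.0301, adjusted p = 0.240, limma), 1.71 without that replicate, 1.33 without the striatum-rich libraries and 0.36 with marker scores as covariates. Prkcd, the kinase whose central amygdala neurons gate conditioned fear, had 21.4, 29.0 and 59.1 TPM against 12.0, 20.5 and 34.1 TPM, a difference of 0.67 ± 0.26 (unadjusted p = 0.0212, adjusted p = 0.212, limma) that was 0.29 with marker scores as covariates. Cartpt, the precursor of the cocaine- and amphetamine-regulated transcript peptides that act on feeding and stress, had 7.58, 36.8 and 124.1 TPM against 2.29, 12.95 and 66.9 TPM. Both ranges overlapped over most of their length, and the difference was 1.52 ± 0.71 (unadjusted p = 0.0483, adjusted p = 0.294, limma), falling to 0.86 without the striatum-rich libraries. It was 1.12 with marker scores as covariates and 1.10 without the choroid-rich libraries (unadjusted p = 0.248 and 0.164, limma).

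Npy ran the other way in the same comparison. Its lowest, median and highest level was 5.15, 86.8 and 168 TPM under FLX against 101, 190 and 299 TPM with vehicle. The upper FLX libraries lay within the vehicle range and the lower ones beneath it. The difference was -1.62 ± 0.55 (unadjusted p = 0.00909, adjusted p = 0.153, limma), and -1.13 without WT FLX replicate 1. With marker scores as covariates it was -1.08 (unadjusted p = 0.2075, adjusted p = 0.827, limma). Of 10 hypothalamic markers, 8 were tested in this comparison, all 8 had higher means under FLX and 4 had an unadjusted p under 0.05. Of 8 oligodendrocyte markers, 8 had higher means and 7 an unadjusted p under 0.05, and no gene of either list was called. Npy was also the gene with the strongest negative relation to hypothalamic markers over all libraries (below). The sample codes of vehicle-treated and drug-treated mice fall in separate ranges, so that any handling that followed the codes and drug against vehicle cannot be told apart.

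IMN against vehicle in WT mice gave no unadjusted p under 0.05, against 4.58% of all genes, with differences from -0.84 to 1.91 and bounds from -2.55 to 4.89 (0.0% of 23644 genes called, 0.0211% without overlap). In Brd1+/- mice Prkcd and Pvalb had lower means with IMN at an unadjusted p under 0.05, or 2 of the 10 genes against 9.3% of all genes, while 0.776% of 24225 genes were called and 0.466% had groups without overlap. Prkcd had a lowest, median and highest level of 8.40, 15.1 and 35.7 TPM with IMN against 13.4, 34.0 and 121.1 TPM with vehicle, a difference of -0.93 ± 0.40 (unadjusted p = 0.0348, adjusted p = 0.477, limma). Pvalb had 6.37, 24.3 and 61.0 TPM against 12.4, 69.2 and 457 TPM, a difference of -1.52 ± 0.63 (unadjusted p = 0.0270, adjusted p = 0.438, limma). The IMN ranges of both genes reached lower and ended lower than the vehicle ranges. Oligodendrocyte markers had lower means in the same comparison, 8 of 8 with an unadjusted p under 0.05 and none called, and summed to 1165 to 6842 TPM with IMN. With marker scores as covariates the Pvalb difference was -0.71 and that of Prkcd -0.65, and without the choroid-rich libraries they were -2.11 (unadjusted p = 0.00817, adjusted p = 0.445, limma) and -1.09. Without the striatum-rich libraries they were -1.21 and -0.98 (unadjusted p = 0.0853 and 0.0762, limma).

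FLX against vehicle in Brd1+/- mice, the counterpart of the comparison with most differences in WT mice, gave none with an unadjusted p under 0.05, against 6.94% of all genes. The differences ran from -0.65 to 0.64 with bounds from -3.04 to 4.08 (0.731% of 24336 genes called, 0.505% without overlap). The difference between the genotypes was tested as an interaction, where 1.71% of 26657 genes were called and 16.8% had an unadjusted p under 0.05. Npy had the single unadjusted p under 0.05, with an interaction of 1.95 ± 0.67 (unadjusted p = 0.00635, adjusted p = 0.124, limma). Its FLX difference was -1.62 in WT and 0.33 in Brd1+/- mice. With marker scores as covariates the interaction was 1.16 (unadjusted p = 0.132, limma). In the same interaction 7 of 9 hypothalamic markers (median -3.70) and 8 of 8 oligodendrocyte markers (median -2.07) had an unadjusted p under 0.05, and none was called. For Crh, Tac2, Cartpt and Prkcd the interaction had an unadjusted p over 0.05, so that a different response of the genotypes was not shown for them. In the IMN interaction, 0.536% of 26673 genes were called and 9.24% had an unadjusted p under 0.05, and Prkcd (-1.31 ± 0.64, unadjusted p = 0.0472, adjusted p = 0.535) and Pvalb (-2.11 ± 0.94, unadjusted p = 0.0319, adjusted p = 0.499, limma) had an unadjusted p under 0.05. With marker scores as covariates these were -0.47 and -0.46, and without the choroid-rich libraries -1.72 and -3.09 (unadjusted p = 0.0250 and 0.00555, limma). Without the striatum-rich libraries they were -1.73 and -2.25 (unadjusted p = 0.0358 and 0.0608, limma). All 8 oligodendrocyte markers had an unadjusted p under 0.05 in the IMN interaction over all libraries, with a median of -1.95 and none called. The comparisons above share their vehicle groups, so that values of 1 gene in several of them are not independent.

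Between FLX and IMN, 1 gene had an unadjusted p under 0.05, in Brd1+/- mice. There Prkcd had a lowest, median and highest level of 14.4, 63.8 and 147 TPM with FLX against 8.40, 15.1 and 35.7 TPM with IMN. The median with FLX lay above the whole IMN range, although the lowest FLX libraries lay inside it. The difference was 1.56 ± 0.47 (unadjusted p = 0.00378, adjusted p = 1.000, limma), and no gene of 23724 was called there (0.0%, with 2.99% at an unadjusted p under 0.05 and 0.0126% without overlap). With marker scores as covariates it was 1.41 ± 0.38 (unadjusted p = 0.00249, limma). The oligodendrocyte markers had a median difference of 0.22 there, and 0 of 8 had an unadjusted p under 0.05. The 2 Brd1+/- FLX libraries with most Prkcd were replicate 6 with 147 TPM and replicate 4 with 101 TPM, and these also held 14912 and 17111 TPM of oligodendrocyte markers, the most in their group. In WT mice the differences between FLX and IMN ran from -0.92 to 1.82 with no unadjusted p under 0.05, against 4.78% of all genes (0.0% of 23501 genes called, 0.0128% without overlap).

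The genes that act before and after the 8 peptides were tested in the same comparisons. Of 21 listed receptors and binding proteins, 19 were tested in each comparison, and none was called in 9 of the 12. Ntsr2, a receptor of neurotensin found mainly on astrocytes, was called in the other 3. Over all genes, 0.335% were called in FLX against vehicle in WT mice, 1.54% in genotype under FLX and 1.71% in the FLX interaction. The lowest, median and highest level of Ntsr2 was 92.0, 111 and 134 TPM in WT FLX against 52.8, 70.6 and 89.4 TPM in WT vehicle. Here the 2 groups did not overlap, which held for 0.153% of all genes tested. The difference was 0.63 ± 0.10 (adjusted p = 0.0203, limma). In Brd1+/- vehicle Ntsr2 ran from 69.1 to 150 TPM with a median of 88.6, above the median of WT vehicle. In Brd1+/- FLX it ran from 58.4 to 112 TPM with a median of 72.4, -0.53 ± 0.12 against WT FLX (adjusted p = 0.0372, limma), and the FLX interaction was -0.98 ± 0.19 (adjusted p = 0.00628, limma). With marker scores as covariates these were 0.47, -0.44 and -0.53, and none passed. The call between genotypes was lost under 10 of 14 other settings (adjusted p up to 0.212, limma) and without any 1 of 10 of its 16 libraries (up to 0.0882), that for FLX in WT mice under 3 of 13 settings (up to 0.676) and without any 1 of 3 libraries (up to 0.0678), and the interaction without the striatum-rich libraries (adjusted p = 0.0731). Its ligand gene Nts had group medians of 38.6 TPM in WT vehicle and 56.2 TPM in WT FLX, with ranges of 11.8 to 80.0 and 6.24 to 99.1 TPM.

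Of 12 genes for precursor cleavage and dense-core vesicles, 1 was called in 1 comparison. Chga, the chromogranin A that packs peptides into dense-core vesicles, ran from 110 to 203 TPM with a median of 181 in Brd1+/- FLX against 212 to 286 TPM with a median of 255 in WT FLX, and the groups did not overlap. The difference was -0.58 ± 0.11 (adjusted p = 0.0241, limma), and 7 of the 12 genes had an unadjusted p under 0.05 in that comparison, 10 of the 12 with lower means in Brd1+/- mice. Over all genes in that comparison 16.6% had an unadjusted p under 0.05, 1.54% were called and 0.368% had groups without overlap, and 5 of 7 hypothalamic markers had an unadjusted p under 0.05 as well. The call was lost under 6 of 14 other settings (adjusted p up to 0.186, limma). Among these were the replicate number as a block (adjusted p = 0.05775, limma) and the sample code as a covariate (adjusted p = 0.145, limma). The call was also lost without WT FLX replicate 1, 2, 3 or 7 (adjusted p up to 0.0594, limma). Of 19 other neuropeptide genes none was called in any of the 12 comparisons. Over the 9 pairwise comparisons the smallest p was that of Trh, thyrotropin-releasing hormone, at 5.53 to 483 TPM in WT FLX against 0.508 to 21.3 TPM in WT vehicle (3.14 ± 0.88, adjusted p = 0.0991, limma). In the FLX interaction the gene of vasopressin, Avp, named after its values were seen, had a smaller p (adjusted p = 0.0591, limma). Both are also among the hypothalamic markers.

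Between punches of the same group the 10 genes varied together in sets. After the group means were subtracted, 23 of the 45 pairs of genes were correlated over the 48 libraries (permutation test within groups, adjusted over the 45 pairs), 18 positively and 5 negatively. By Spearman's rho 23 pairs passed, and 21 passed by both measures. The smallest p the 100000 permutations can give is 1e-05.

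**Figure D3:**
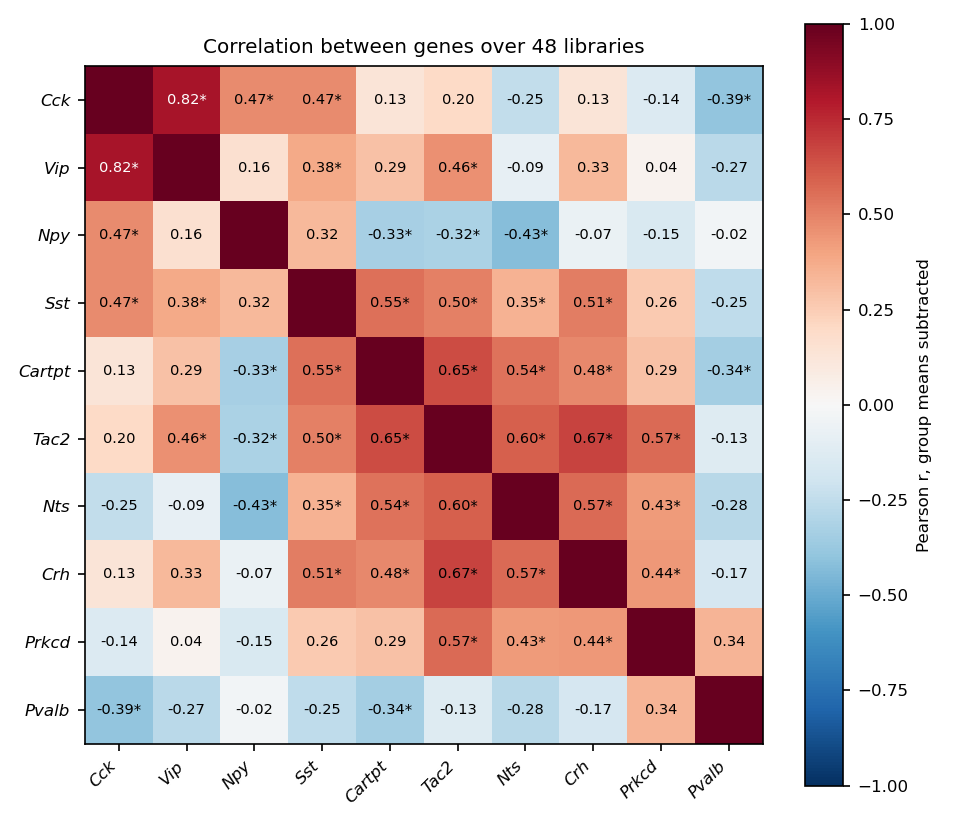
Pearson r of log2(TPM + 0.1) between the 10 genes over 48 libraries with group means subtracted; an asterisk marks an adjusted permutation p under 0.05. Cck and Vip form the strongest pair, and Cartpt, Tac2, Nts and Crh are all positively related to each other.

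Cck and Vip gave the strongest pair, with r = 0.82 (permutation p = 1e-05, adjusted p = 0.00015) and rho = 0.84 (adjusted p = 9e-05). Without the 2 libraries farthest from the median of the first gene, r was 0.80. Both genes are made by interneurons, and Cck by glutamatergic neurons too. Crh, Nts, Tac2 and Cartpt formed the other set, and all 6 of their pairs passed. Crh and Tac2 had r = 0.67 (permutation p = 0.00016, adjusted p = 0.00107) with rho = 0.77, and 0.69 without the farthest 2 libraries. For Nts and Tac2, r was 0.60 (permutation p = 7e-05, adjusted p = 0.00063) with rho = 0.77, and 0.64 without the farthest 2. Crh and Nts had r = 0.57 (permutation p = 1e-05, adjusted p = 0.00015) with rho = 0.66, and 0.71 without the farthest 2.

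Prkcd went with part of this set, with r = 0.57 to Tac2, 0.44 to Crh and 0.43 to Nts (adjusted permutation p = 0.00107, 0.00704 and 0.0217). Its relation to Cartpt did not pass (r = 0.29, adjusted permutation p = 0.0943). Sst was related to both sets, at r = 0.55 to Cartpt, 0.51 to Crh, 0.50 to Tac2 and 0.47 to Cck (adjusted permutation p of 0.00402 or less). Its relation to Crh fell to 0.30 without the farthest 2 libraries. Npy rose with Cck (r = 0.47) and fell with Nts (r = -0.43), Cartpt (r = -0.33) and Tac2 (r = -0.32). Pvalb was negatively related to Cck (r = -0.39) and Cartpt (r = -0.34). The adjusted permutation p was 0.00246 for Npy and Cck and 0.0376 or less for the 5 negative pairs. All the pairs of this paragraph that passed by r passed by rho too.

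Some of these relations changed when the 12 libraries with at least 2000 TPM of striatal markers, a limit chosen after the data were seen, were left out. In the remaining 36 libraries 18 pairs passed, of which 10 were among the 23, 1 of them (Tac2 and Vip) with the opposite sign. Vip and Cck held at r = 0.72, Crh and Tac2 at 0.73, Nts and Tac2 at 0.75 and Crh and Nts at 0.66. Tac2 and Cartpt fell from 0.65 to 0.35 and Crh and Cartpt from 0.48 to 0.21 (adjusted permutation p = 0.101 and 0.389). The 4 relations of Sst named above did not pass, at 0.30 to Cartpt (adjusted permutation p = 0.149), 0.18 to Crh, 0.08 to Tac2 and 0.26 to Cck. Nor did the 5 negative pairs of Npy and Pvalb, with adjusted permutation p of 0.0791 to 0.267. In 5 pairs that passed, the sign was opposite to that over all libraries. Tac2 and Cck went from 0.20 to -0.77 (adjusted permutation p = 0.000112), Tac2 and Vip from 0.46 to -0.66 (adjusted p = 0.00045), Crh and Cck from 0.13 to -0.53 (adjusted p = 0.00707), Crh and Vip from 0.33 to -0.51 (adjusted p = 0.0104) and Vip and Cartpt from 0.29 to -0.43 (adjusted p = 0.0225). Nts was negatively related to both, at -0.68 to Cck (adjusted p = 0.00045) and -0.71 to Vip (adjusted p = 0.0003). Punches poor in striatal markers ran from high Tac2, Nts and Crh with low Cck and Vip to the reverse. In the 12 striatum-rich libraries alone, Tac2 and Cck had r = 0.81 and Tac2 and Vip r = 0.83, and no pair passed (smallest adjusted permutation p = 0.153). There the 3 libraries listed at 0 for Tac2 also had the least Cck of the 12, at 8.28 to 13.04 TPM.

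**Figure D4:**
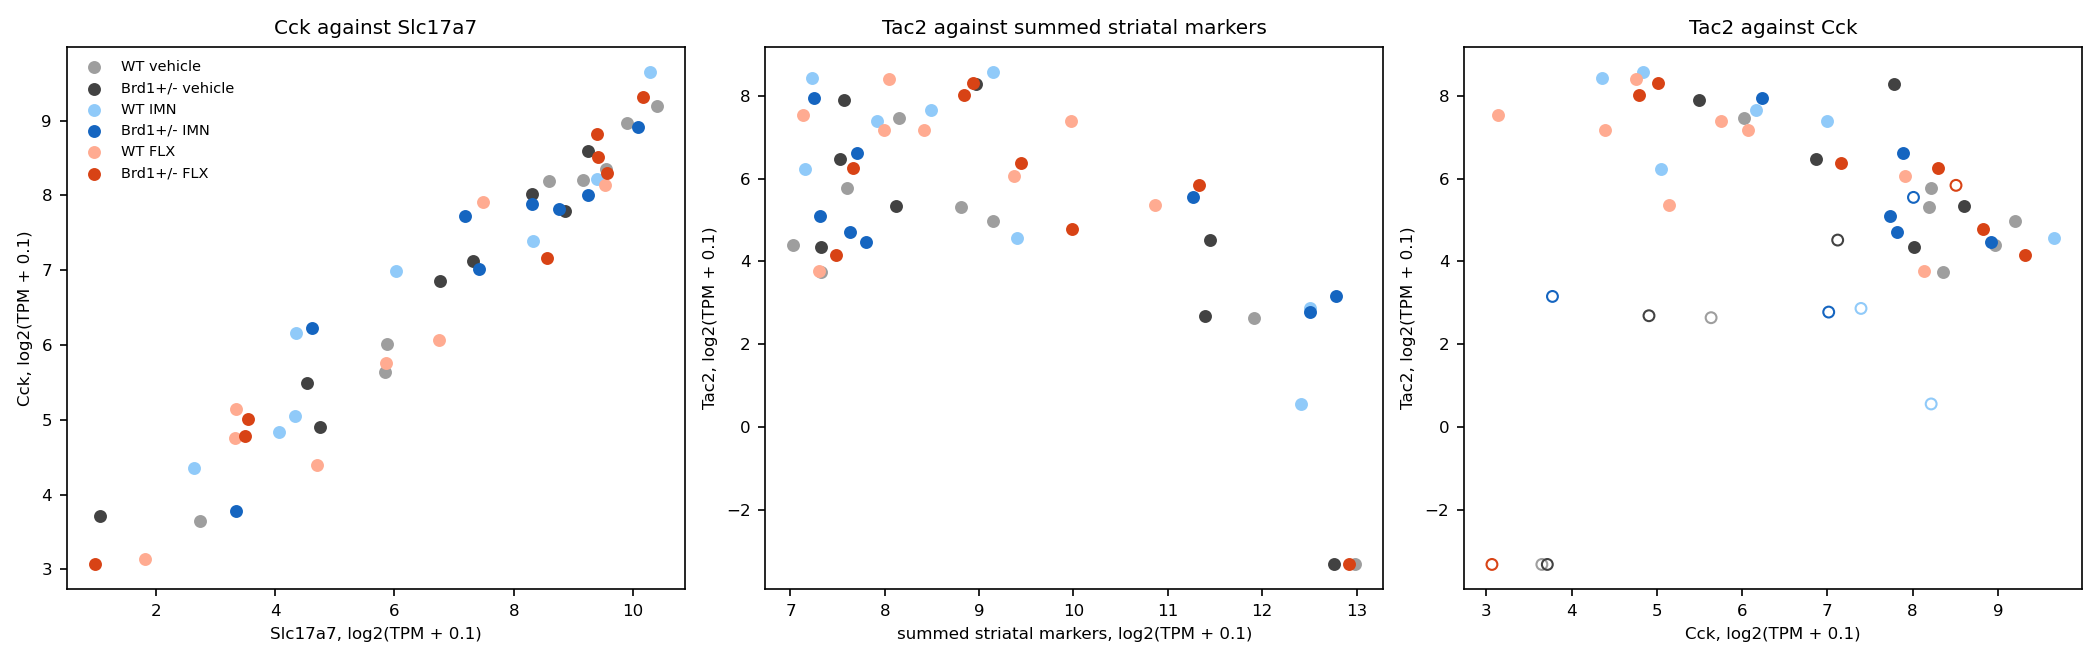
Each point is 1 library on log2(TPM + 0.1) axes, coloured by group: Cck against Slc17a7 (left), Tac2 against the sum of 8 striatal markers (middle) and Tac2 against Cck (right, open circles mark the 12 libraries with at least 2000 TPM of striatal markers). Cck follows Slc17a7 from 8.28 to 807 TPM, the 3 libraries without Tac2 lie at the striatal end, and the filled points of the right panel fall as Cck rises.

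For each of the 10, the genes with the most similar pattern, by Pearson r over the 48 libraries among 13832 protein-coding genes with a mean of at least 1 TPM were listed. They are given as a ranking, with no test. Cck was followed most closely by Slc17a7 (r = 0.97), Neurod2 (0.96) and Rtn4rl2 (0.95), the first a vesicular glutamate transporter and the second a transcription factor of glutamatergic neurons. Vip was closest to Galnt9 (0.91), Ccn3 (0.90) and Ak5 (0.90). Tac2 was closest to Pnoc (0.87), which encodes the precursor of the peptide nociceptin, then Bag2 (0.87) and Stk32b (0.87). Crh was closest to Ptprr (0.83), 1500009L16Rik (0.77) and Cracr2a (0.75).

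Nts ranked with Gabarapl2 (0.80), Scg2 (0.79), a secretogranin of dense-core vesicles, and Nrsn2 (0.79). For Cartpt the ranking gave Arhgap36 (0.92), Rnf138rt1 (0.88) and Gpc3 (0.88). Npy was closest to Kcnh3 (0.90), Chrm1 (0.88) and Myo5b (0.86), the first a potassium channel and the second a muscarinic acetylcholine receptor of forebrain neurons. Pvalb ranked with Esrrg (0.87), a nuclear receptor, Kcng4 (0.87), a potassium channel subunit, and Spp1 (0.81). Prkcd had the loosest likeness, with Vipr2 (0.77), a receptor of the Vip peptide, Cdc14a (0.73) and Dock10 (0.73). Sst was closest to Rpp25 (0.81), Cspg5 (0.78) and Tmem35a (0.78).

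Scores of 8 marker lists were related to the 10 genes in the same way. For each marker, log2(TPM + 0.1) was scaled to SDs from its mean over the 48 libraries. A score is the mean of these over a list without the 10 genes. Of 80 relations between a gene and a score, 32 passed an adjusted permutation p of 0.05. Cck had r = 0.93 (rho = 0.92) and Vip r = 0.81 (rho = 0.81) to the glutamatergic score (adjusted permutation p = 0.000133), and 0.91 and 0.79 without the 2 libraries at the ends of that score. Striatal markers were negatively related to Cartpt (r = -0.74, rho = -0.71), Tac2 (r = -0.64, rho = -0.44), Vip (r = -0.56, rho = -0.44) and Sst (r = -0.45, rho = -0.37), and positively to Npy (r = 0.40, rho = 0.44). Each of these had an adjusted permutation p of 0.0374 or less by both measures, and without the 2 libraries at the ends of the striatal score r was -0.71, -0.54, -0.42, -0.37 and 0.44. The 3 libraries listed at 0 for Tac2 held 8115, 6928 and 7770 TPM of striatal markers.

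Hypothalamic markers rose with Cartpt (r = 0.68, rho = 0.73), Nts (r = 0.54, rho = 0.59) and Tac2 (r = 0.48, rho = 0.60), peptides that hypothalamic neurons make as well, and fell with Npy (r = -0.70, rho = -0.63). Without the farthest 2 libraries these were 0.67, 0.51, 0.52 and -0.60, and the adjusted permutation p was 0.0008 or less by both measures. Npy was at 10.5 TPM in WT IMN replicate 4 and 5.15 TPM in WT FLX replicate 1, where hypothalamic markers summed to 10529 and 2031 TPM. GABAergic markers went with Nts (r = 0.68, rho = 0.73), Tac2 (r = 0.43, rho = 0.65) and Crh (r = 0.42, rho = 0.63). The 5 central amygdala markers that are not among the 10 genes went with Prkcd (r = 0.57, rho = 0.63). The adjusted permutation p of these 4 was 0.0126 or less by both measures, and r without the farthest 2 libraries was 0.59, 0.43, 0.40 and 0.58. Oligodendrocyte markers, the sign of white matter in a punch, went with Pvalb (r = 0.55, rho = 0.56) and Prkcd (r = 0.54, rho = 0.52) and against Cck (r = -0.54, rho = -0.61), with adjusted permutation p of 0.00311 or less by both measures and r of 0.55, 0.48 and -0.50 without the farthest 2 libraries.

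**Figure D5:**
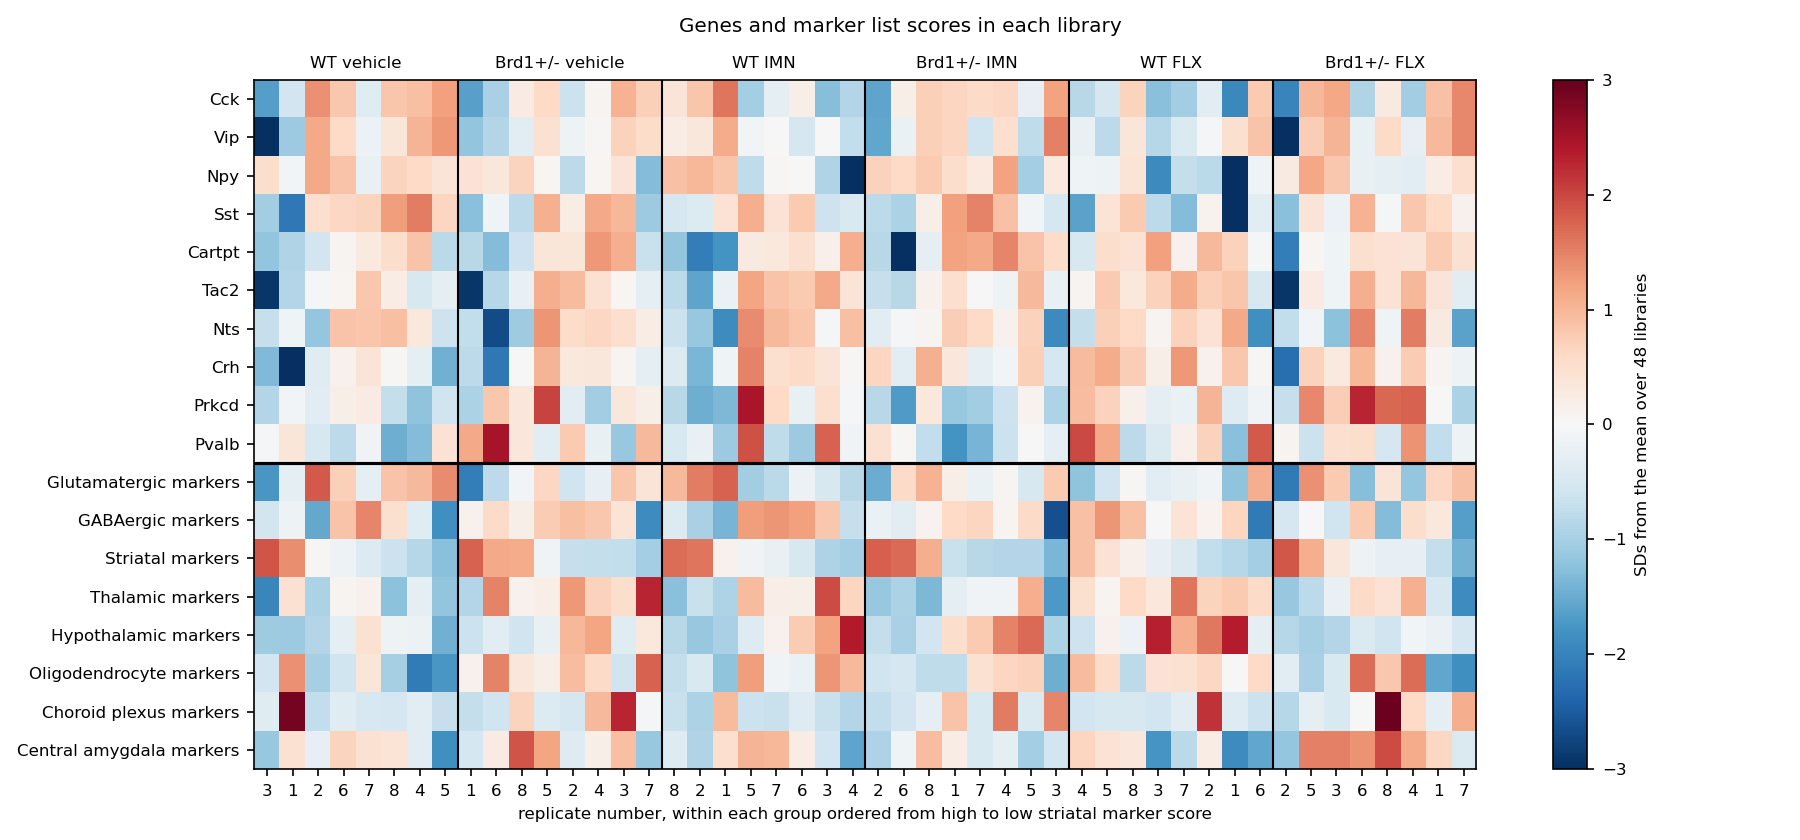
The 10 genes (above the line) and the scores of 8 marker lists (below) in each of 48 libraries, as SDs from the mean over all libraries; libraries are ordered within each group from high to low striatal score. Dark blue cells for Vip, Tac2 or Cartpt stand at the left, striatum-rich edge of several groups, and Cck follows the glutamatergic row.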

How the data were processed

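Per the labels, RNA of frozen amygdala punches was made into TruSeq libraries. The study's methods give single-end Illumina sequencing, and the submitters' processing notes name FastQC, Trimmomatic, HISAT2 2.1.0, StringTie 1.3.4 and the build GRCm38. The deposited values are TPM per gene, scaled by the authors for transcript length and library. They sum to 999524 to 999772 per library over 52636 genes and hold no counts, so that the depth of each library, its counting error and the precision it gives are unknown. Whether strand was used is not given in the sources used here.

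TPM values were analysed with limma 3.58.1 in R 4.3.3 (trended prior) on log2(TPM + 0.1), keeping genes of at least 0.1 TPM in at least 8 libraries of the fit. Only the compared groups entered each pairwise fit. Tests were two-sided with Benjamini-Hochberg adjustment over all genes tested and a threshold of 0.05. A count test was not run on TPM. Correlations used Python 3.11.15, with 100000 permutations of libraries within groups. The scripts were tested on simulated data. No 2 libraries held identical values. The labels name no litter, day or animal beyond a code per sample, so p-values measure the spread between these samples.

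The named differences are those of the 10 genes with an unadjusted p under 0.05. From the other lists, called genes (at most 3 per list and comparison) are named, else the gene with the smallest p, and for likeness the 3 genes with the highest r. The 10 genes, the lists and the markers were chosen with earlier results of these data known. Alternatives were the pseudocount, the filter, the scaling, a replicate block, covariates, 1 fit of all groups and leaving out libraries. The covariates were the striatal, thalamic and oligodendrocyte scores or, for genotype and for FLX against IMN, the sample code. Dlx6os1, with 2 identifiers, was left out of its list.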

Additional observations from a re-analysis of the deposited data

Results flagged for a closer look

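In 9 of 60 sets of 8 libraries (10 genes in 6 groups), the lowest library stood apart from the others by Dixon's test on log2(TPM + 0.1), 15.0% of sets where chance gives about 1 in 20, or 3. Crh was listed at 0 TPM in WT vehicle replicate 1, where the others ran from 1.47 to 11.0 TPM, and Tac2 at 0 in WT vehicle replicate 3, against 6.12 to 177 TPM. Brd1+/- FLX replicate 2 stood apart for 4 genes, with Crh at 0.551, Tac2 at 0, Vip at 0 and Cartpt at 0.47 TPM, where the lowest of the others had 6.27, 17.8, 5.89 and 13.5 TPM. Nts was at 5.83 TPM in Brd1+/- IMN replicate 3, against 25.6 to 68.8 TPM. Npy was at 10.5 TPM in WT IMN replicate 4, against 58.2 to 270.0 TPM, and at 53.3 TPM in Brd1+/- IMN replicate 5, against 152 to 314 TPM. WT vehicle replicate 3 and Brd1+/- FLX replicate 2 are the libraries with 8115 and 7770 TPM of striatal markers, and WT IMN replicate 4 and Brd1+/- IMN replicate 5 hold 10529 and 2847 TPM of hypothalamic markers. The part of these in the low values was not tested.

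The FLX difference of Ntsr2 differed between the genotypes, with an interaction of -0.98 ± 0.19 on the log2 scale (adjusted p = 0.00628, limma). It did not pass with marker scores as covariates (-0.53, adjusted p = 0.349, limma) or without the striatum-rich libraries (-0.94, adjusted p = 0.0731, limma).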

How the results depend on the processing

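In 417 of 418 alternative fits over the 12 comparisons, 0 of the 10 genes were called. The exception was FLX against vehicle in WT mice without WT vehicle replicate 1, where 1 gene (Crh) was called, so that leaving out single libraries gave 0 to 1 there. Of 428 refits of the 13 differences named in the report, 0 reversed and 1 passed the threshold anew. The number of correlated pairs ran from 22 to 25 when single libraries were left out. Replicate numbers did not pair the samples. After group means were subtracted, same-numbered libraries correlated between -0.35 and 0.65 over genes with a mean of at least 1 TPM. These values were never all over 0.1 in a comparison, and at most 2 of 8 libraries matched their own number best. With a replicate block 0 of the 10 genes were called in each comparison, and Ntsr2 (adjusted p = 0.0785 between genotypes and 0.0667 for FLX in WT) lost its pairwise calls. The genotype call of Ntsr2 was also lost without WT FLX replicate 1, 2, 3, 4, 5 or 7 or Brd1+/- FLX replicate 3, 5, 7 or 8, and its FLX call in WT mice without WT vehicle replicate 8 or WT FLX replicate 2 or 7. Counts over all genes moved far more than 1.5 times with single libraries: 1 (without WT FLX replicate 7) to 956 (without WT vehicle replicate 1) for FLX against vehicle in WT mice (79 with all, 1262 without the striatum-rich libraries), 70 to 490 for genotype under FLX (364 with all) and 80 to 349 for genotype with vehicle (172 with all). Single libraries gave 247 (without Brd1+/- vehicle replicate 2) to 695 (without Brd1+/- FLX replicate 4) for the FLX interaction (455 with all), 89 (without Brd1+/- vehicle replicate 4) to 174 for IMN (188 with all) and 88 (without Brd1+/- vehicle replicate 3) to 166 for FLX (178 with all) against vehicle in Brd1+/- mice, and 4 to 19 (without WT vehicle replicate 1) for genotype over all treatments (6 with all). Over the other settings, leaving out several libraries included, the count ran from 0 to 1262 for FLX against vehicle in WT mice, 0 to 398 for genotype under FLX, 0 to 439 for IMN and 0 to 415 for FLX against vehicle in Brd1+/- mice, 0 to 212 for the IMN interaction (143 with all), 25 to 481 for the FLX interaction and 1 to 105 for genotype over all treatments. For genotype with vehicle it was lowest, at 0, over multi-exon protein-coding genes alone and highest in 1 fit of all 48 libraries, at more than 1.5 times the 172. The causes were not tested. Without counts, no limit of detection can be given for libraries listed at 0.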
